A study of Mus musculus with 236 samples.

Results

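The cells described here are female mouse embryonic stem cells taken at day 2.5 of differentiation, ordered by a pseudotime value that the authors deposited and split at its median into an early and a late group. They were chosen by 2 things: having a value of pseudotime, and its place against the median of 12.03, on a scale without a unit. The early group holds the 61 cells at or below that median and the late group the 61 cells above it, out of 406 cells of the series in the deposited expression table. Another 83 day 2.5 cells in that table had no pseudotime value. The line is a hybrid whose maternal X chromosome is of the C57BL/6J strain (B6) and whose paternal one is CAST/EiJ (CAST), so that RNA of both chromosomes can be told apart by sequence variants. Cells had been grown in serum with LIF and inhibitors of MEK and GSK3, and differentiation was started by taking all 3 away and plating on fibronectin, per the labels' protocols. Both groups share this line, this treatment and this day. RNA and chromosome contacts were read from the same cells with HiRES, a single-cell method for the 3D genome and the transcriptome. The cells are of 1 hybrid line, and the labels name no separate cultures. Each group was therefore treated as 1 sample, and no p-value was made from cells. Intervals are 95% intervals for counting error only, except those of medians over genes, which reflect spread between genes. None covers spread between cultures.

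Female mammals silence 1 of their 2 X chromosomes. The noncoding RNA Xist is made from the chromosome to be silenced, spreads over it and recruits repressors such as SPEN and the Polycomb complexes. In the embryo proper and in differentiating stem cells either chromosome can be chosen, and Xist is turned on as naive pluripotency is lost. Most genes of the coated chromosome then fall silent over the following days, while a few escape.

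The groups are not an independent grouping for the X chromosome. Pseudotime stands in the deposited cell table of the chrX allele counts, and the sources used here do not say how it was computed. All chrX levels and allelic shares below are therefore descriptions of the groups and support nothing by themselves. Pseudotime ran from 0.0664 to 15.1, but only 8 cells lay under 10, and 12 cells lay within 0.1 of the median. The 3 cells just inside the early group had values of 12.0282, 12.0197 and 11.9969, and the 3 just outside had 12.0337, 12.0454 and 12.06. Among these 6 cells Xist ranged from 745 to 4571 UMIs (unique molecular identifiers) per 1000000 UMIs of the cell, with 745, 1465 and 2109 in the 3 early cells. The line between the groups therefore runs through a dense group of cells rather than through a gap. Among day 0.5 cells with a pseudotime value, 1 lay above the day 2.5 median, and their own median was 0.812.

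The authors' cluster labels split the cells mainly by which X chromosome carried Xist, and the groups shared the large clusters. Cluster C5 held 35 early and 35 late cells, in which the part of allelic chrX UMIs that was B6, leaving out Xist and Tsix, had medians of 21.9% and 17.8%. Cluster C4 held 13 early and 16 late cells, with median B6 shares of 81.6% and 82.2%. The remaining early cells lay in C3 (11) and C2 (2), and the remaining late cells in C3 (5) and C6 (5). No early cell was in C6 and no late cell in C2, and each count of 0 among 61 cells allows a share of up to 4.92% by a limit of 3 cells, or 5.87% by the exact interval drawn in the plot of shares. All 29 cells of C4 had a value on only the second of the authors' 2 curves, whereas 64 of 70 cells of C5 and 4 of 5 of C6 had one on only the first. The C4 cells stopped at a pseudotime of 12.5, and the C5 cells reached 13.9. The late group of C4 therefore spans only 12.1 to 12.5, against 12.03 to 13.9 in C5.

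**Figure D1:**
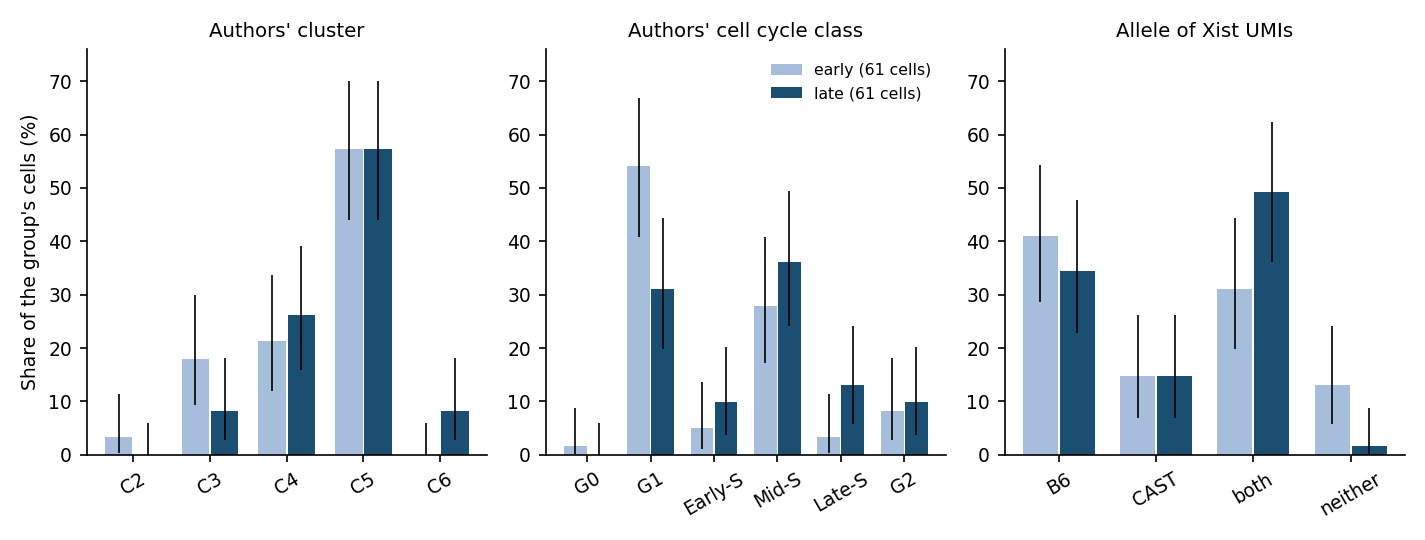
Share of cells (percent, y axis) of each group in each of the authors' clusters, in each of the authors' cell cycle classes and by the allele of the Xist UMIs. Bars are the 61 early and 61 late cells, and lines are exact 95% binomial intervals. The G1 class fell from 54.1% to 31.1% of cells, and cluster C5 held 57.4% of both groups.

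Cell cycle class moved with the groups. The G1 class held 33 early cells (54.1%) and 19 late cells (31.1%), and the S classes held 22 (36.1%) and 36 (59.02%). The shift was uneven between the 2 sets of cells that the deposited table names under a header whose meaning is not given. In set 1 the G1 class held 24 of 39 early and 6 of 33 late cells. In set 2 it held 9 of 22 early and 13 of 28 late cells, so the direction differed. Values within each set, within the G1 class and within the S classes are given for the main results. The part that cell cycle plays in those results beyond these values was not tested.

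Depth was alike in both groups. The early cells had 529 to 27977 UMIs with a median of 14962, and the late cells 6125 to 29275 with a median of 15923. Only 1 early cell had under 1000 UMIs, it also had the lowest pseudotime, and leaving it out gave the same Xist ratio of 1.62. The median numbers of chromosome contacts were 144309 and 143003, and contacts between chromosomes were 8.76% and 9.58% of all contacts. UMIs on exons were 24.4% and 24.7%. All these cells came from 92 libraries, no cell name occurred more than once, and 30 libraries gave 2 of the cells, in 18 cases both to the same group. Markers of other cell types differed in level. Of the trophectoderm and two-cell-like lists no member reached 50 UMIs. Fibroblast, primitive endoderm and trophectoderm genes summed to 130, 503 and 35.004 CPM (UMIs per 1000000 UMIs) in the early group. In the late group the sums were 115.4, 458 and 25.7 CPM, and at day 0.5 they were 460.7, 473.4 and 170.7 CPM. Within those lists 3 of 12 fibroblast, 2 of 15 primitive endoderm and 3 of 13 trophectoderm genes had no UMI. Col3a1, Sox17, Gata6 and Cdx2 had a UMI in at most 3 of 61 cells of either group. Other members stood higher: the laminin genes Lamc1 (187.6 and 157.8 CPM) and Lamb1 (138.4 and 146.8), and the fibronectin gene Fn1 (113.2 and 98.6). At day 0.5 Lamc1, Lamb1 and Fn1 stood at 319.97, 24.3 and 448.6 CPM. Naive pluripotency genes, which stood at 2675 CPM in sum at day 0.5, were at 195.8 and 166.8 CPM in the groups, so the label of differentiating stem cells holds for both.

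Xist (X:103460373-103483233, GRCm38) was higher in the late group. Single early cells had 0 to 6976 CPM of Xist with a median of 1269, and single late cells 0 to 6679.6 with a median of 2717. The ranges overlap almost entirely, and the medians do not. Summed over cells, Xist was at 1893 CPM (1804 to 1984) in the early and 3062 CPM (2951 to 3175) in the late group, a ratio of 1.62 (1.52 to 1.72). A Xist UMI was seen in 56 of 61 early and 60 of 61 late cells. For comparison, Xist was at 41.4 CPM at day 0.5, where 30.8% of cells had a UMI, and at 83.1 CPM in the 83 day 2.5 cells without a pseudotime value, where 49.4% had one. The cells described here are thus the Xist-rich ones of day 2.5, and the sources used here do not say by which rule the authors kept them. Nor do they say whether counting used strand, so reads of Xist and of its antisense gene Tsix may be mixed.

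**Figure D2:**
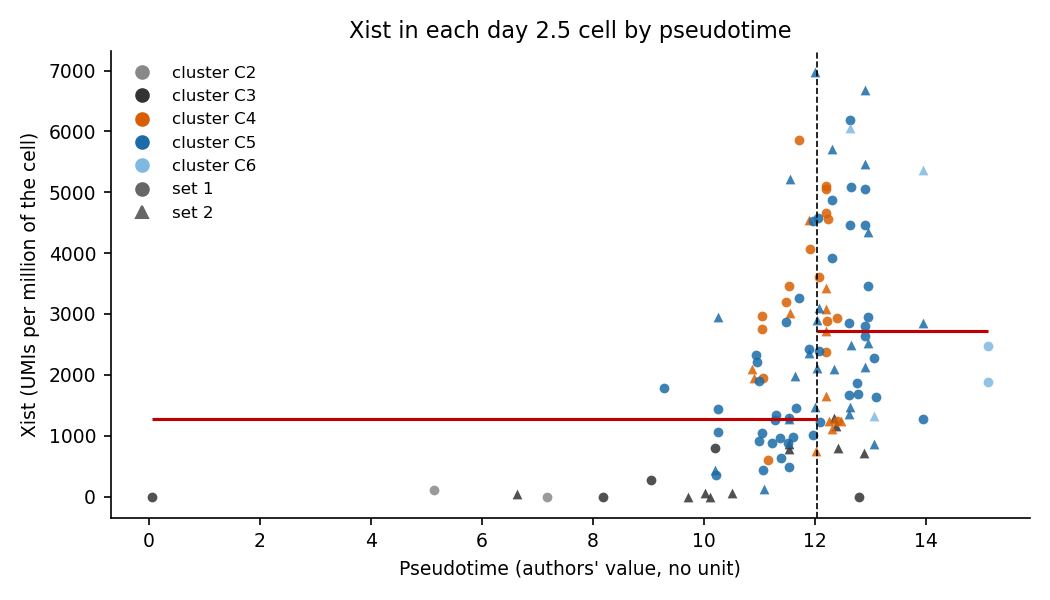
Xist in each of the 61 early and 61 late cells (y axis, CPM of the cell) against the authors' pseudotime (x axis, no unit). Colours are the authors' clusters, circles are set 1 and triangles set 2, the dashed line is the median pseudotime, and the red lines are the median of each group, 1269 and 2717. Cells under a pseudotime of 10 have little Xist, except a C5 cell at 1783 CPM, and both groups spread widely near the dashed line.

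Most of that difference lay at the start of the order. In 4 bins of the pseudotime order, with 30 or 31 cells each, Xist was at 1178, 2548, 2894 and 3228 CPM. The first bin held 11 of the 18 cells of C2 and C3, which have little Xist, and the second bin held 2. Of 10 cells with fewer than 2 Xist UMIs, 9 were early and 1 late, all in C2 or C3. Excepting the cell with 5 allelic UMIs, their B6 shares of chrX RNA lay between 42.1% and 62.5%, so neither chromosome dominated. Within the G1 class Xist was at 1240 and 1605 CPM, a ratio of 1.29 (1.13 to 1.47), and within the S classes at 2338 and 3375 CPM, a ratio of 1.44 (1.33 to 1.57). Both class ratios were below the pooled one, and S class cells had more Xist than G1 class cells within each group. Set 1 gave 1.74 and set 2 gave 1.48. Cluster C5, with Xist on the B6 chromosome, stood at 1983 and 3260 CPM, a ratio of 1.64 (1.52 to 1.77). Cluster C4, with Xist on the CAST chromosome, stood at 2916 and 2938 CPM, a ratio of 1.01 (0.903 to 1.12). The 2 ratios have intervals that do not overlap, and C4 spans the shorter stretch of pseudotime. Cell cycle class moved with this difference: the G1 class went from 24 of 35 early to 8 of 35 late cells in C5 and from 4 of 13 to 5 of 16 in C4, and its part in the 2 ratios was not tested.

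The allele counts split this level by chromosome. B6 Xist was at 745 allelic CPM in the early and 1517 in the late group, a ratio of 2.04 (1.86 to 2.23), and CAST Xist at 483 and 558, a ratio of 1.15 (1.02 to 1.31). These pooled ratios also depend on which clusters each group holds. Within C5 the ratio of B6 Xist was 1.72 (1.57 to 1.90), and within C4 that of CAST Xist was 1.08 (0.941 to 1.23). The B6 share of Xist UMIs was 60.6% in the early and 73.1% in the late group. Cells with Xist UMIs of both alleles numbered 19 and 30, but the lesser allele had a single UMI in 11 and 20 of them and over 20% of the Xist UMIs in only 3 and 1. Cells with Xist of B6 alone numbered 25 and 21, and of CAST alone 9 and 9.

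Neighbours of Xist in the X-inactivation centre did not move as a block. A gene counted as higher or lower where its CPM differed by at least 1.5 times, in the same direction in both sets, among genes with at least 50 UMIs in all. By this rule 5.14% of 6090 genes were higher in the late group and 3.45% lower, 8.59% in all. Of the members of the centre described here, Xist was higher by this rule, and Ftx, Jpx, Tsix and Rlim were not called. Ftx, a noncoding gene that promotes Xist, was at 895 and 1035 CPM, a ratio of 1.16 (1.05 to 1.27). Jpx, another noncoding activator, was at 67.6 and 90.4 CPM, with ratios of 1.88 in set 1 and 0.864 in set 2. Tsix, the antisense repressor of Xist, was at 341 and 343 CPM, a ratio of 1.01 (0.858 to 1.18). Rlim, the ubiquitin ligase that removes a repressor of Xist, was at 173.4 and 132.2 CPM, a ratio of 0.762 (0.600 to 0.972). That lower level of Rlim came with C3, where it stood at 429 CPM in the early cells. In C4 and C5 the Rlim ratios were 1.11 and 1.08. Its ratio was 1.28 (0.868 to 1.89) in the G1 class and 0.518 (0.373 to 0.724) in the S classes.

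RNA from the X chromosome as a whole was slightly lower in the late group. ChrX genes took 4.21% of nuclear UMIs in the early and 3.85% in the late group, a ratio of 0.915 (0.902 to 0.928), against 5.46% at day 0.5 and 5.41% in day 2.5 cells without pseudotime. Without Xist the ratio was 0.882 (0.869 to 0.895). No autosome was as far from 1: their ratios ran from 0.975 on chromosome 15 to 1.03 on chromosome 8. Sets 1 and 2 gave 0.890 and 0.948, and the G1 and S classes 0.910 and 0.896.

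The 2 large clusters moved in opposite directions. In C5 the chrX share without Xist went from 3.96% to 3.46%, a ratio of 0.872 (0.855 to 0.888). In C4 it went from 3.36% to 3.69%, a ratio of 1.10 (1.07 to 1.13). Split by allele, the Xist-bearing B6 chromosome of C5 cells gave 4645 allelic CPM in the early and 3246 in the late group, a ratio of 0.699 (0.658 to 0.743). Their CAST chromosome gave 15892 and 13842, a ratio of 0.871 (0.845 to 0.898). In C4 the Xist-bearing CAST chromosome gave 3232 and 3800 and the B6 chromosome 13040.0 and 15309, both with a ratio near 1.2 (1.18 and 1.17). Both chromosomes thus gave less in late C5 cells, the one with Xist more so, and both gave more in late C4 cells. Leaving out Klhl13, described further on, moved the ratio of the C5 CAST chromosome to 0.926 (0.897 to 0.955) and that of the B6 chromosome to 0.713 (0.671 to 0.758). C4 held 13 early and 16 late cells, and whether the 2 clusters differ was not tested.

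**Figure D3:**
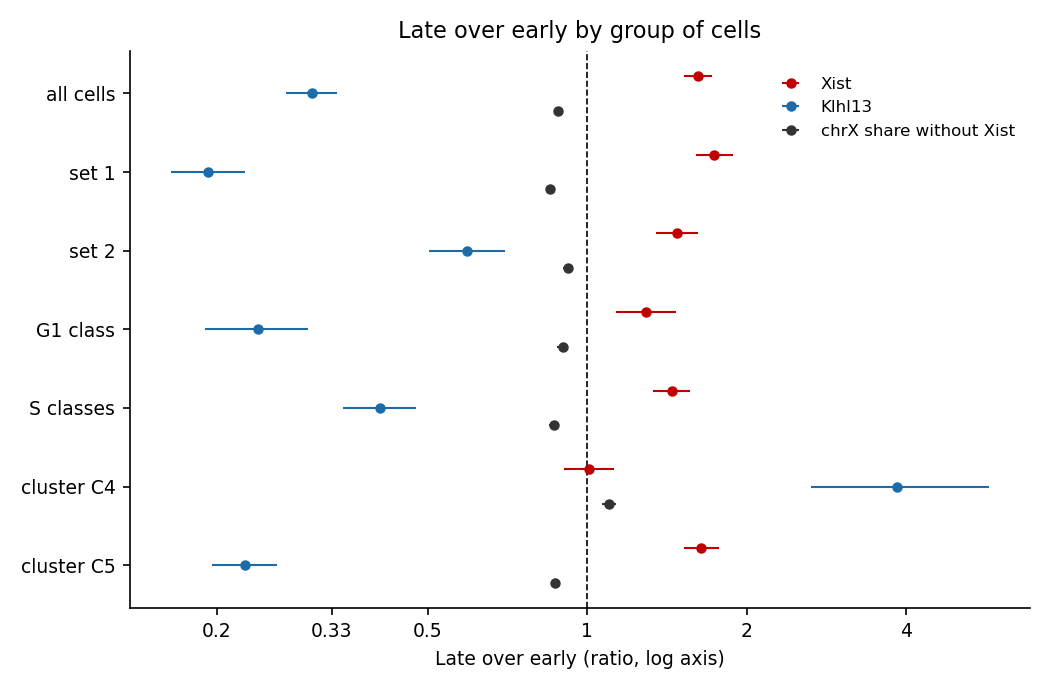
Ratio of late to early (x axis, log scale) of the summed CPM of Xist and of Klhl13 and of the chrX share of nuclear UMIs without Xist, for all cells and within sets, cell cycle classes and clusters C4 and C5 (y axis). Points are ratios, lines are 95% intervals for counting error, and the dashed line is a ratio of 1. Klhl13 has a ratio of 0.226 in C5 and 3.84 in C4.

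Single cells were more one-sided in the late group. Cells with at least 20 allelic chrX UMIs were called one-sided where 1 allele gave 80% or more of them. By that rule 18 of 60 early cells (30.0%) and 36 of 61 late cells (59.02%) were one-sided, a difference of 29.02 percentage points (11.3 to 44.3). The larger allele's share had a median of 76.5% in the early and 81.6% in the late group, so many cells lie near the limit. At 90% the counts were 1 and 3 cells, and at 70% they were 44 and 56. The difference at 80% was 23.8 points in set 1, 38.96 in set 2, 24.5 in the G1 class and 33.8 in the S classes. Within C4 and C5 alone it was 27.2 points. Cells one-sided towards B6 numbered 8 and 10, and towards CAST 10 and 26, and every one of them had a Xist UMI. The added one-sided cells of the late group were thus mostly cells of C5, which held 10 and 23.

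**Figure D4:**
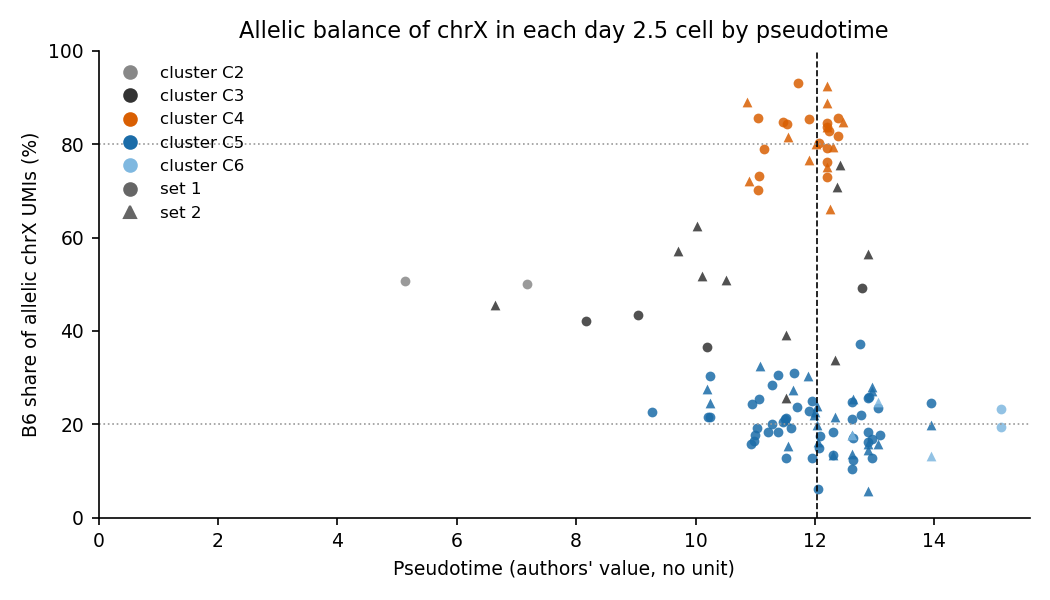
Part of allelic chrX UMIs that was B6, leaving out Xist and Tsix (percent, y axis) in each day 2.5 cell with at least 20 such UMIs against the authors' pseudotime (x axis, no unit). Colours are clusters, circles are set 1 and triangles set 2, the dashed line is the median pseudotime and the dotted lines at 20% and 80% bound the one-sided cells. Orange cells of C4 lie high, blue cells of C5 lie low, and cells under 10 lie mostly between.

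The chromosome without Xist gave a larger share of chrX RNA in late cells where Xist was on the B6 chromosome, but not where it was on the CAST chromosome. Whether both kinds of cell differ in this was not tested. In cells with B6 Xist alone that share was 74.7% in 25 early cells (49.1% to 87.1% by cell) and 80.7% in 21 late cells (62.9% to 94.2%), a difference of 6.01 points (4.57 to 7.44). In cells with CAST Xist alone it was 78.02% in 9 early cells (70.2% to 88.9%) and 77.6% in 9 late cells (66.1% to 84.5%), a difference of -0.43 points (-2.71 to 1.89). The mean of both classes went from 76.4% to 79.2%, a difference of 2.79 points (1.44 to 4.15). In cells with B6 Xist alone the difference was 2.40 points (0.20 to 4.53) in the G1 class and 10.3 (8.09 to 12.5) in the S classes. It was 4.08 points in set 1 and 9.16 in set 2. In cells with CAST Xist alone it was 1.86 points (-1.41 to 5.19) in the G1 class and -1.14 (-4.58 to 2.33) in the S classes. In cells with CAST Xist the difference was 2.95 points in set 1 and -3.79 in set 2, with 4 or 5 cells on each side. The interval of the latter (-7.09 to -0.56) left out 0. With cells classed by the allele that had more Xist UMIs, the difference was 4.75 points (3.70 to 5.80) for B6 and -1.77 (-3.51 to -0.022) for CAST. Classed this way, the B6 difference was 0.80 points (-1.10 to 2.62) in the G1 class and 8.84 (7.11 to 10.6) in the S classes. These intervals treat UMIs as independent, and the single cells spread far wider than the intervals.

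Gene by gene, the share from the Xist-bearing chromosome was mostly lower in the late group. Of 59 chrX genes with at least 30 such allelic UMIs in each group, 44 had a lower share in the late group and 15 a higher one. The median share was 23.2% in the early and 16.7% in the late group, with a median difference of -4.43 points (-6.67 to -2.94 over genes). Counting error alone kept the difference below 0 for 12 genes and above 0 for 4. Snx12, a sorting nexin, had the largest fall, from 33.3% of 66 UMIs to 2.17% of 46. Acsl4, an enzyme that activates polyunsaturated fatty acids, went from 32.03% to 4.71%, and Mbtps2, the site-2 protease, from 34.1% to 10.2%. Next came Ammecr1 (27.3% to 5.71%), Utp14a (30.0% to 10.3%) and the deubiquitinase Usp9x (35.96% to 16.96%), of which Utp14a and Usp9x are on the list of known escape genes. At the other end Ogt, which attaches N-acetylglucosamine to proteins, went from 18.3% of 60 UMIs to 42.4% of 49.5, and Rp2 from 16.6% to 37.4%. Klhl13 went from 15.2% to 34.6% over both kinds of cell, and Rbm10, Dkc1 and Diaph2 were higher by 17.3, 7.41 and 7.37 points with intervals that include 0.

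These shares pool cells with B6 and cells with CAST Xist, whose part in the UMIs of a gene can differ between the groups, so they were also taken within each kind of cell after the pooled values were seen. In cells with B6 Xist alone, 33 of 45 genes with enough UMIs were lower in the late group and 12 higher, with a median difference of -5.42 points. Intervals lay below 0 for 10 of the 45 and above 0 for 2. In cells with CAST Xist alone only 9 genes had enough UMIs, 5 of them lower and 4 higher, with a median difference of -0.32 points. The higher pooled share of Klhl13 was not seen in cells with B6 Xist, where it stood at 13.3% of 375 UMIs and 6.67% of 45, a difference of -6.67 points (-12.5 to 4.94). In cells with CAST Xist it stood at 10 of 19 and 24 of 33 UMIs, a difference of 20.1 points (-6.15 to 44.3). The falls of Snx12, Acsl4 and Mbtps2 lay in cells with B6 Xist, at -36.8, -38.5 and -28.8 points. Rp2 was higher by 35.8 points (14.9 to 50.8) in cells with B6 Xist, and Ogt by 42.1 points (14.4 to 61.3) in cells with CAST Xist.

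Position and escape status split these shares as follows. The distance bins leave out the genes of the escape list. Genes within 10 Mb of Xist went from 21.3% to 16.4%, those at 10 to 30 Mb from 22.1% to 18.4%, and those at 30 to 60 Mb from 20.7% to 15.1%. Genes farther than 60 Mb stood at 25.8% and 25.4%, a difference of -0.40 points (-3.42 to 2.65), and Klhl13 and Rp2 lie in that range. Without Klhl13 these far genes stood at 30.4% and 24.02% in cells with B6 Xist alone, a difference of -6.37 points (-10.3 to -2.38), and at 24.1% and 26.5% in cells with CAST Xist alone, a difference of 2.45 points (-3.38 to 8.26). The 16 measured genes of the escape list went from 39.3% to 33.4% and the 502 other genes from 22.1% to 17.99%. Escape genes thus gave the higher share in both groups.

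ChrX genes also stood at the low end of the changes in level. Of 210 chrX genes with at least 50 UMIs, 22 (10.5%) were lower and 9 (4.29%) higher, and their median log2 change was -0.18. Of 5696 autosomal genes 3.23% were lower and 5.21% higher, with a median of 0.03 and 8.44% in either direction. A log2 change is log2 of (CPM late + 5) over (CPM early + 5) and understates the change of low genes. Of the 12 genes with the lowest log2 change among those with at least 100 UMIs and the same direction in both sets, 6 lie on chrX, and none of the 12 highest does, while chrX holds 3.70% of the genes with at least 100 UMIs.

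Klhl13 (X:23219271-23365161), a substrate adaptor of a CUL3 ubiquitin ligase, had the largest log2 difference in level of all genes with at least 100 UMIs and the same direction in both sets. It was at 1494 CPM in the early and 452 CPM in the late group, a ratio of 0.303 (0.271 to 0.337). Single cells ranged from 0 to 7001 CPM with a median of 655 in the early group, and from 0 to 3246 with a median of 152.7 in the late group. In the 4 bins it stood at 2078, 959.6, 572 and 333 CPM. The ratio was 0.193 in set 1 and 0.594 in set 2, and the log2 change was -2.05 in the G1 class and -1.29 in the S classes. In C5 it stood at 1915 CPM in early and 433 CPM in late cells, a ratio of 0.226 (0.196 to 0.260), and in C4 at 160.6 and 617 CPM, a ratio of 3.84 (2.64 to 5.73). Most of its allelic UMIs were CAST in C5, 91.1% in early and 93.3% in late cells. In C4 the alleles were nearly even, with 13 UMIs of each in early cells and 52 of B6 and 40 of CAST in late ones. The fall in C5 was thus on the CAST chromosome, which carries no Xist there, at a ratio of 0.214 (0.178 to 0.256), as well as on B6. Klhl13 was at 653 CPM at day 0.5 and at 1098 in the day 2.5 cells without pseudotime.

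The other 5 chrX genes of that group had lower counts. Fgf13 (X:59062139-59585572), which binds sodium channels inside the cell, stood at 130 CPM in early and 41.95 CPM in late cells, a ratio of 0.322 (0.219 to 0.465). Its median over cells was 61.8 CPM in the early group and 0 in the late. Map7d3 (X:56794833-56822490), a microtubule-binding protein gene, stood at 206.2 CPM in early and 80.8 CPM in late cells, a ratio of 0.392 (0.297 to 0.515). Fgf13 was lower in C4 and in C5, with ratios of 0.0934 and 0.377, and Map7d3 likewise with 0.489 and 0.368. Mcf2, a guanine nucleotide exchange factor, went from 102.3 to 40.4 CPM, but its log2 change was -2.61 in set 1 and -0.23 in set 2. Jade3, of a histone acetyltransferase complex, went from 177.2 to 88.6 CPM, with ratios of 1.30 in C4 and 0.629 in C5. Platr21, a noncoding RNA, went from 76.02 to 36.7 CPM.

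Autosomal genes at both ends had low counts. Among the lowest were Kcng3, a potassium channel subunit (191.97 to 89.2 CPM), the corepressor Runx1t1 (177.2 to 82.9), the collagen receptor Mrc2 (125.8 to 61.4) and Egln3, a prolyl hydroxylase of HIF (106.1 to 51.4). Klhl14 was at 103.9 and 50.3 CPM, with a log2 change of 0.63, the opposite way, within the G1 class. The highest were Hecw1, a ubiquitin ligase (38.3 to 105.9 CPM, a ratio of 2.77, 1.87 to 4.19), Thsd4, of the extracellular matrix (44.8 to 116.4), Sfmbt2, a Polycomb-type protein (97.4 to 226.02), and Lrriq1 (35.004 to 84.95). Of these Thsd4 and Lrriq1 had log2 changes of -0.017 and -0.59 within the G1 class. Then came the RNA-binding Caprin2 (48.1 to 110.1), the exosome subunit Exosc2 (49.2 to 106.98), Clstn1 (59.1 to 119.04), the zinc finger gene Zfp760 (53.6 to 106.98) and the calcium channel subunit Cacnb4 (45.9 to 91.8). Lamp1, of the lysosome membrane, was at 38.3 and 77.1 CPM, Pdia3, a disulfide isomerase of the endoplasmic reticulum, at 70.6 and 137.9, and the bromodomain gene Brd2 at 57.97 and 112.7. Each of these 12 genes had a late-over-early ratio between 1.94 and 2.77.

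Changes of single genes in the 2 sets hardly resembled each other. Over 6090 genes the log2 changes of set 1 and set 2 had a Pearson r of 0.012, and of 997 genes with a ratio of at least 1.5 or its inverse in set 1, 505 (50.7%) had the same sign in set 2. Over the 210 chrX genes alone the r was 0.138 with a Spearman rho of 0.020, and 28 of 54 such genes (51.9%) had the same sign. With at least 500 UMIs the r was 0.041 over 772 autosomal genes and 0.448 over 36 chrX genes. It was 0.383 over the 35 chrX genes other than Xist. Genes are not independent replicates, and low counts lower any such r. Both sets lowered 39.5% of the 210 chrX genes and raised 15.2%, against 22.7% and 27.98% of autosomal genes.

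**Figure D5:**
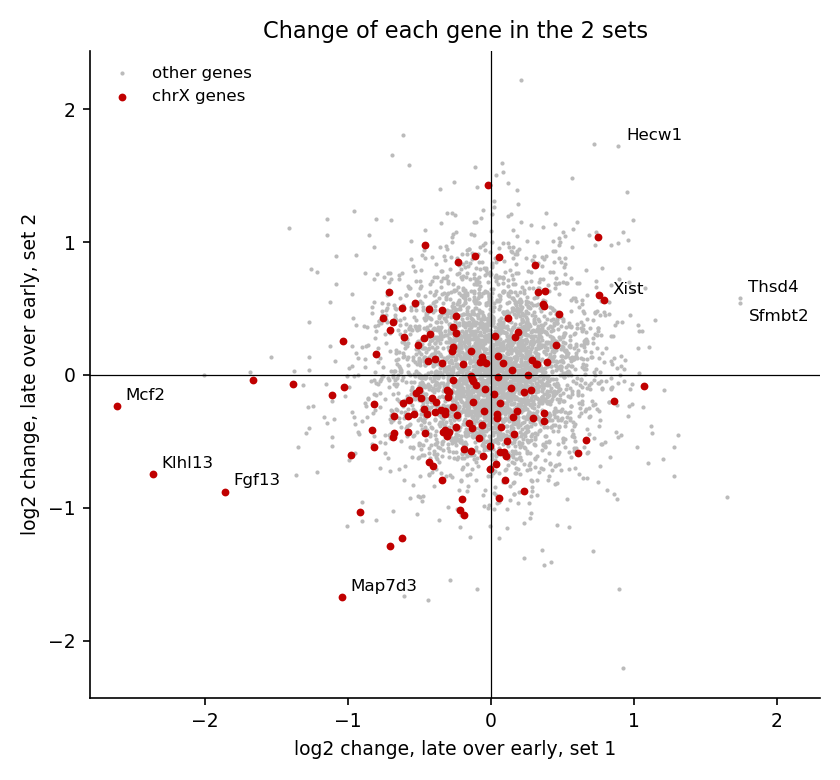
Change of each of 4081 genes with at least 100 UMIs as log2((CPM late + 5)/(CPM early + 5)) in set 1 (x axis) and in set 2 (y axis). Red points are chrX genes and grey points all others. Klhl13, Fgf13, Mcf2 and Map7d3 lie in the lower left, Xist in the upper right, and the grey cloud has no slope that the eye can see (r over all genes 0.017).

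The pluripotency lists had median log2 changes below 0, and single members differed in both directions. The naive list, genes of the ground state before differentiation, had only 2 of 17 members measured, with 5 at 0, and a median log2 change of -0.35. Those 2, Morc1 (45.9 and 31.5 CPM) and Manba (48.1 and 40.9 CPM), had intervals that include no change. The general pluripotency list had 9 measured members, none called, and a median of -0.07. Of all genes 8.59% were called, so counts in lists this short say little. Trim71, an RNA-binding ubiquitin ligase, was at 475 and 651 CPM, a ratio of 1.37 (1.21 to 1.55). Rif1 was at 806 and 765, E-cadherin Cdh1 at 528 and 457, and the Nodal coreceptor Tdgf1 at 189.2 and 179.9. The formative and primed list, genes that rise as cells leave the naive state, had 15 measured members and a median of -0.0031 (-0.21 to 0.17). The methyltransferase gene Dnmt3b was at 1537 and 1499 CPM. Dnmt3a, also of this list, had a ratio of 0.743 (0.622 to 0.890), with log2 changes of -0.88 in set 1 and 0.21 in set 2. The kinase gene Pim2, on chrX, was at 346 and 463. Sox4 was called higher (43.8 and 67.1 CPM), but not once cells were thinned to 5000 UMIs, where its log2 change was -0.067. Lef1 and Lin28b went opposite ways in the 2 sets. The whole list summed to 5121 CPM in the early, 4917 in the late group and 3628 at day 0.5.

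Germ layer lists gave few measured members. Of 17 primitive streak genes only Nodal was measured (37.2 and 49.3 CPM), and 10 had no UMI. The 4 measured neuroectoderm genes, Zfp521, Map2, Sox11 and Ncam1, had log2 changes between -0.37 and 0.29, none called. Of 6 primitive endoderm genes Lama1, a laminin chain, was called lower (48.1 and 22.03 CPM), but its log2 change was 0.76 within the S classes. Lamc1 was at 187.6 and 157.8 CPM, Lamb1 at 138.4 and 146.8, and Col4a1 at 37.7 and 29.9. The only measured fibroblast gene, Fn1, which encodes fibronectin, was at 113.2 and 98.6 CPM.

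Genes of G2 and M phase were higher in the late group. Their 16 measured members had a median log2 change of 0.41 (0.19 to 0.52) against 0.02 over all genes. Of the 16, 2 were called higher and none lower, against 5.14% and 3.45% of all genes. The list's sum stood at 2369 CPM in early and 2957 CPM in late cells, a ratio of 1.25 (1.18 to 1.32). The spindle gene Nusap1 was at 131.8 and 210.3 CPM and called higher, as was cyclin Ccnb1 (28.4 and 44.1), whose log2 change was -0.14 within the S classes. Tpx2, also of the spindle, was at 175.6 and 263 CPM, Ect2 at 241 and 308, and the topoisomerase Top2a at 609.8 and 651. The list's median was 0.28 within the G1 class and 0.03 within the S classes. It was 0.52 in set 1 and 0.29 in set 2, where the G1 class held 9 of 22 early and 13 of 28 late cells. The part of cell cycle class in this difference was not tested. The 19 measured S phase genes had a median of -0.17 (-0.38 to 0.13). Mcm5, of the replicative helicase, was called lower (72.2 and 47.2 CPM), and Pola1, of DNA polymerase alpha and on chrX, was at 1198 and 912. Hells was at 750.4 and 755 CPM. The authors' S score had medians of 0.0630 and -0.0308 and their G2M score -0.0830 and 0.0435. The S classes held more late cells, whereas the S score was lower in them.

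Signalling lists had medians on both sides of 0, and 3 of their 26 measured members were called (11.5%), against 8.59% of all genes. Among MEK-ERK targets Etv4 was called higher (22.97 and 53.5 CPM), while Etv5 was at 329.8 and 339.8 and Spred2 at 608 and 522. Among Wnt targets cyclin Ccnd1 was called lower (42.7 and 25.2 CPM), and Znrf3 was at 817 and 625. The list's sum had a ratio of 0.817 (0.761 to 0.877), the lowest ratio among the signalling lists. Lef1 and Znrf3 held most of the UMIs of that sum. Lef1, at 934.7 and 809.2 CPM, had ratios of 1.22 in set 1 and 0.554 in set 2. Nodal and BMP genes (8 measured) and LIF-STAT3 targets (3 measured) had no called member and medians of -0.037 and -0.071. In the p53 response list the receptor gene Eda2r, on chrX, was called higher (75.5 and 116.4 CPM), and Trp53inp1 was at 241 and 305 with log2 changes of 0.99 in set 1 and -0.22 in set 2.

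Known partners of Xist were at like levels. Of 18 measured members of that list none was called, against 8.59% of all genes. The median log2 change was 0.05 (-0.096 to 0.23), and the sums were 5177 and 5296 CPM. Smchd1, which maintains silencing, was at 506 and 608 CPM, a ratio of 1.20 (1.06 to 1.36), Ncor1, of the HDAC3 corepressor, at 934 and 901, and Cdyl at 1145 and 1024. Polycomb genes (14 measured) had a median of 0.03, with Pcgf6 called higher (56.9 and 87.1 CPM), Jarid2 at 1401 and 1197, and the H3K27 methyltransferase Ezh2 at 311 and 361. Among DNA methylation genes the glycosylase gene Tdg was called higher (49.2 and 81.8 CPM), Dnmt3a was at 313 and 232.3, and the list median was -0.12.

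Lists of X-linked genes had medians below 0, and 1 of their 39 measured members was called, against 14.8% of chrX genes and 8.59% of all genes. Of 24 measured X-linked housekeeping genes none was called, and the median log2 change was -0.14 (-0.31 to 0.0017). Huwe1, a ubiquitin ligase, was at 1299 and 1047 CPM, a ratio of 0.806 (0.740 to 0.877), while Atrx was at 1755 and 1749, Gpc3 at 694 and 694, and the cohesin gene Stag2 at 557 and 534. Of 15 measured escape genes Syap1 was called lower (38.8 and 24.1 CPM), and the median was -0.11. The histone demethylase genes Kdm6a and Kdm5c were at 657 and 584 and at 386 and 357 CPM. Glycolysis, heat shock, ribosomal protein and mitochondrial lists had medians between -0.14 and 0.09. Called in them were the phosphofructokinase genes Pfkl (38.8 and 68.2 CPM) and Pfkp (43.8 and 68.2), higher, Rpl7 (18.6 and 34.6), higher, and Rps3 (47.6 and 28.3), lower.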

How the data were processed

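The authors deposited UMIs in the form of expected counts by gene and by cell, of which 11.1% of those above 0 are fractions, and the same by allele for 1082 chrX genes. Their cell tables hold, per the file headers, counts of contacts, a ratio of Y to X reads, cell cycle scores, clusters and pseudotime. The submitters' processing notes name the build GRCm38. Sources used here name no aligner, counter, strand setting or cell filter. Doublets were not called. Tables also held 1101 and 893 columns of no sample here, which were not used.

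Counts were summed over cells and scaled to CPM in Python 3.11.15 (scipy 1.17.1). Intervals of levels were exact Poisson, those of shares Clopper-Pearson, of ratios exact and conditional on the sum, of differences of shares Newcombe, and of medians from order statistics (the range for under 6 genes). For a count of 0 the limit is 3 counts of the total. RefSeq positions (GRCm38.p6) covered 29780 of 39300 gene names. Genes named were the 12 highest and 12 lowest changes at 100 UMIs or more and the same direction in both sets, up to 4 members with the most UMIs of each of 26 lists, called members where 5 or fewer, measured members of the X-inactivation centre, and the 6 largest and 6 smallest allelic falls. Some genes that this rule names are not reported here. Members and lists were chosen with earlier results of these data known. Calculations were tested on simulated data. Alternatives covered scaling, pseudocount, minimum counts, weighting, thinning, the split, sets, letters of cell names, cell cycle classes and thresholds.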

Additional observations from a re-analysis of the deposited data

Results flagged for a closer look

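Late-over-early ratios of every named gene and of the chrX share without Xist were set side by side for clusters C4 and C5 and for sets 1 and 2. In 13 pairs (5.46% of those looked at) both intervals for counting error left out 1 and lay on opposite sides. None of these differences was tested over samples, since each group is 1 sample.

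Between the clusters, Klhl13 had ratios of 3.84 (2.64 to 5.73) in C4 and 0.226 (0.196 to 0.260) in C5, and the chrX share without Xist 1.10 (1.07 to 1.13) and 0.872 (0.855 to 0.888). Gpc3, a glypican gene on chrX, had 1.71 in C4 and 0.618 in C5. Autosomal genes did the same: Lef1 with 0.549 and 1.30, Tet1 with 0.550 and 1.21, the glucose transporter gene Slc2a3 with 0.376 and 1.81, the replication genes Atad2 with 1.70 and 0.686 and Dtl with 1.51 and 0.505, and Zfp521 with 1.71 and 0.722.

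Between the sets, Lef1 had ratios of 1.22 (1.07 to 1.40) in set 1 and 0.554 (0.477 to 0.647) in set 2, Lin28b 0.636 and 1.27, Top2a 1.37 and 0.769, and Atrx 0.907 and 1.13.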

How the results depend on the processing

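No paired analysis was possible because the replicate numbers of the libraries are only names in accession order, and nothing says what the 2 sets of cells are, so values within each set are given in place of a test. The 7 main results were recomputed in 98 combinations with alternatives, of which 66 stayed within the main interval, or within 1.5 times the main count. The Xist ratio of 1.62 was 1.74 as a mean over cells, 1.74 in cells thinned to 5000 UMIs, 2.34 between the lowest and highest tercile of pseudotime, 1.74 and 1.48 in sets 1 and 2, 1.83 in letter B, 1.44 in the S classes and 1.29 in the G1 class. It was 1.40 in C4 and C5 together and 1.01 in C4. The chrX share ratio of 0.915 was 0.870 between terciles, 0.890 and 0.948 in the sets, 0.896 in the S classes, 0.882 without Xist, 0.938 without Klhl13 and 0.957 in C4 and C5 together, and it turned to 1.09 in C4. The 523 genes past the fold became 5081 with no minimum of UMIs, 293 after thinning, 281 in letter B, 814 in the G1 class and 78 at a fold of 2. The share of chrX RNA from the chromosome without Xist differed by 2.79 points, and by 7.08 after thinning, 4.71 between terciles, 6.90 in letter B and 4.56 in the S classes. The difference in one-sided cells of 29.02 points was 3.25 at 90%. The naive list's median of -0.35 was -0.036 with no minimum, -0.71 between terciles and -0.11 in C4 and C5, and the formative list's median was 0.19 in the G1 class. Causes were not tested. The clusters, the gene shares within each Xist class, the largest allele and the limit of 1000 UMIs were chosen as alternatives after seeing the data.

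Of the named genes, 1146 of 1298 alternative values kept the sign. Of 41 called genes 6 turned: Sox4 to -0.067 after thinning, Lama1 to 0.76 and Ccnb1 to -0.14 in the S classes, and Klhl14 to 0.63, Thsd4 to -0.017 and Lrriq1 to -0.59 in the G1 class. Median-ratio scaling left the Xist ratio at 1.59 and the gene count at 523. Letter B held 14 early and 9 late cells, and a gene at 50 UMIs can pass a fold of 1.5 by counting error alone.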
